A study of Prunus persica with 25 samples.

Results

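*DAM5* (PRUPE_1G531600) and *DAM6* (PRUPE_1G531700) are 2 of the DORMANCY-ASSOCIATED MADS-box genes of peach, and they were followed here as 2 of the 26873 genes counted in each library. Both were found by their identifiers in every count table. The 25 libraries come from buds of the peach cultivar Fantasia, taken from orchard trees as chilling units (CU, a measure of accumulated cold) built up, and each replicate combines buds from several trees. Vegetative buds of the later sampling period gave 3 libraries each at Pre0CU (before chilling began), 200CU, 475CU and Post770CU (after 770CU), and flower buds of that period gave 2 libraries each at Post770CU and Pre0CU. Vegetative buds of the earlier period gave 3 libraries each at 0CU, 475CU and 770CU. All trees belong to a single cultivar grown outdoors, so chilling, calendar date and day length moved together.

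*DAM* genes lie next to each other in a tandem array and encode transcription factors of the SVP/AGL24 type of MADS-box proteins, named after *Arabidopsis* regulators of flowering time. In peach the evergrowing mutant, which lacks part of the array, does not stop growth and set terminal buds in winter. The later members of the array are known for transcripts that are abundant in dormant buds and decline as cold accumulates. Gene lengths and genome positions were not analysed here, so the level of one gene is not set against that of the other, and only changes across libraries are compared.

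Total counts were 39891412 to 71239880 per vegetative library of the later period, 44894673 to 61090788 per flower library and 39615840 to 68355366 per vegetative library of the earlier period. Both genes were well counted throughout. The smallest count of either was 674, for *DAM5* in replicate A of 770CU, with an exact 95% Poisson interval of 624 to 727 that covers counting error only. The deposited tables of the 2 periods differ. A median of 96.2% of the counts above 0 per library were even in the earlier period and 49.9% in the later period, and all 9 *DAM5* and all 9 *DAM6* counts of the earlier period were even. A median of 4474 genes per library had a count of 0 in the earlier period, against 25.5 in the later one. Levels are therefore compared within a period first. Levels are given as CPM, counts relative to the library size after TMM scaling, and a change was called at an adjusted p under 0.05 together with a fold change over 1.4, which is 0.485 on the log2 scale.

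Between Pre0CU and Post770CU of the later period, *DAM5* and *DAM6* in vegetative buds were highest at 200CU. *DAM5* stood at 152, 149 and 159 CPM in the 3 libraries of Pre0CU, 632, 621 and 648 CPM at 200CU, 516, 532 and 539 CPM at 475CU, and 157, 157 and 153 CPM at Post770CU. The 200CU libraries were the highest and the 475CU libraries the next, each without overlap with any other collection, whereas the Post770CU and Pre0CU libraries overlapped. *DAM6* stood at 523, 530 and 556 CPM at Pre0CU, 1375, 1314 and 1227 CPM at 200CU, 1015, 1022 and 1190 CPM at 475CU, and 406, 370 and 362 CPM at Post770CU. Its 4 collections did not overlap, and Post770CU was the lowest.

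**Figure D1:**
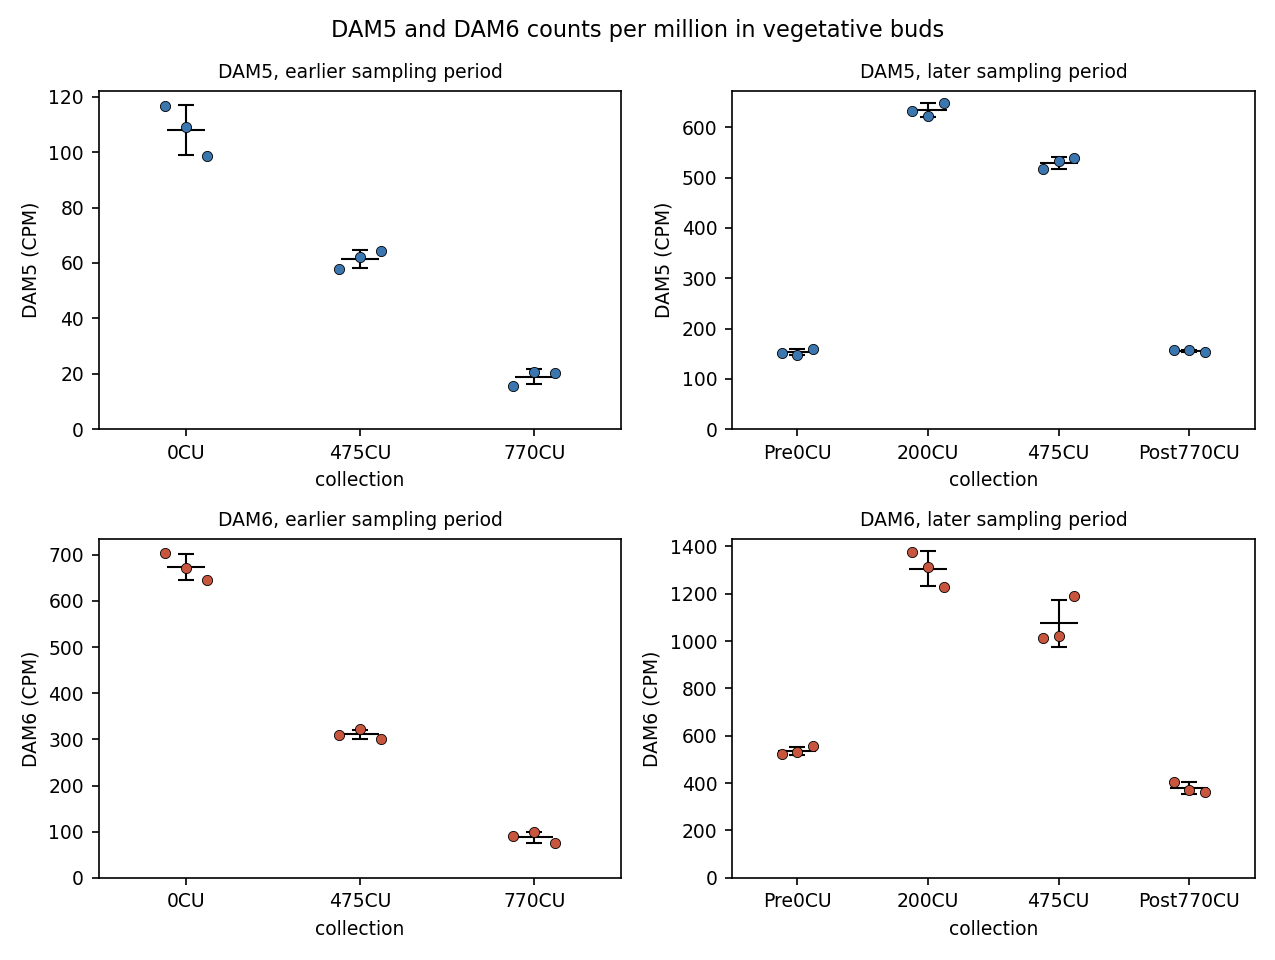
Levels of *DAM5* (upper row) and *DAM6* (lower row) in vegetative buds, in CPM on the vertical axis, for the collections of the earlier (left) and later (right) period in order of time. Points are libraries, bars the mean and SD (n = 3), and the vertical scales differ between panels. In the later period *DAM5* averaged 634 CPM at 200CU, against 153 CPM at Pre0CU, while both genes were lowest at 770CU of the earlier period.

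The first comparison asks how the genes changed as chilling began. At 200CU *DAM5* was 4.13-fold higher than at Pre0CU (log2 fold change 2.05 ± 0.08 SE, edgeR adjusted p = 3.33e-13), and its mean was 634 ± 13.3 CPM at 200CU against 153 ± 5.42 CPM at Pre0CU (SD, n = 3 each). *DAM6* was 2.43-fold higher (log2 fold change 1.28 ± 0.09 SE, edgeR adjusted p = 6.43e-10), at 1306 ± 74.2 CPM in 200CU buds against 536 ± 17.7 CPM in Pre0CU buds. Both genes were thus called, in a comparison that called 20.4% of all genes tested. At 475CU both were still above Pre0CU, by 1.79 ± 0.08 for *DAM5* (edgeR adjusted p = 1.64e-12) and 1.00 ± 0.09 for *DAM6* (edgeR adjusted p = 1.44e-08) on the log2 scale, and 23.1% of genes were called there.

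The step between 200CU and 475CU was small. The log2 fold change of 475CU over 200CU was -0.26 ± 0.08 for *DAM5* and -0.28 ± 0.09 for *DAM6*, with edgeR adjusted p of 0.0308 and 0.0344. Both were under the fold threshold and neither was called, while 6.31% of genes were. Libraries within these collections also differed in flower bud markers. *LFY*, which specifies floral meristems in *Arabidopsis*, stood at 27.9, 26.5 and 3.52 CPM in replicates A, B and C of 475CU and at 3.29, 6.58 and 13.3 CPM in those of 200CU. Summed over the 4 flower bud markers (*LFY*, *AGL79*, *AGL20B* and *SEP1*), the range was 11.4 to 45 CPM at 475CU, 12.4 to 28.8 CPM at 200CU and 15.8 to 17.9 CPM at Pre0CU, and none of the 4 was at 0 in those collections. Like *LFY*, *AGL79* and *SEP1* were lowest in replicate C of 475CU and highest in replicate C of 200CU. *AGL20B* went the other way, at 1.42, 1.22 and 1.87 CPM in replicates A, B and C of 475CU. At 200CU it stood at 1.98, 1.43 and 1.36 CPM. *DAM6* was highest in the 475CU library with the least *LFY* and lowest in the 200CU library with the most. *DAM5* was the highest of its collection in both of these libraries, at 539 and 648 CPM. With the low-*LFY* library alone standing for 475CU, the log2 fold change over 200CU was -0.23 for *DAM5* and -0.13 for *DAM6*. The changes against Pre0CU were then 1.81 for *DAM5* and 1.15 for *DAM6*. This split was chosen after seeing the data, and 1 library gives no spread of its own, so only the values are given. The 3 shoot meristem markers *STM*, *KNAT1* and *PRS*, genes of the growing tip in *Arabidopsis*, summed to 159 to 174 CPM at Pre0CU, 38 to 40.6 CPM at 200CU, 58.4 to 76.6 CPM at 475CU and 86.8 to 94.1 CPM at Post770CU, and all 3 fell at 200CU against Pre0CU. At 475CU against 200CU *STM* and *KNAT1* rose, while *PRS* had a log2 fold change of -0.41 and was not called. At Post770CU against 475CU only *KNAT1* of the 3 was called, as higher, and all 3 were called lower at Post770CU than at Pre0CU. The part of either marker list in the result was not tested. In these whole-bud samples fewer cells of a type and less RNA per cell cannot be told apart.

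Both genes then fell. *DAM5* fell by 1.76 ± 0.08 on the log2 scale at Post770CU against 475CU (edgeR adjusted p = 1.29e-11), a 3.40-fold difference, with 156 ± 2.15 CPM at Post770CU and 529 ± 11.7 CPM at 475CU. *DAM6* dropped by 1.50 ± 0.09 (edgeR adjusted p = 3.44e-10), a 2.83-fold difference, with 380 ± 23.5 CPM at Post770CU and 1076 ± 99.1 CPM at 475CU. Of all genes, 13.6% were called between these collections. Against 200CU the log2 fold change of Post770CU was -2.03 ± 0.08 for *DAM5* and -1.78 ± 0.09 for *DAM6*, with edgeR adjusted p of 4.16e-13 and 7.86e-12 and 23.2% of genes called.

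The ends of the season differed between the genes. *DAM5* at Post770CU was 0.02 ± 0.08 log2 units from its level at Pre0CU (edgeR adjusted p = 0.844), and the difference was smaller than the SD between the Pre0CU libraries. *DAM6* fell by 0.50 ± 0.09 on the log2 scale at Post770CU (edgeR adjusted p = 4.56e-05), which lies just past the fold threshold. The log2 value fell under that threshold, at -0.47, -0.48 and -0.47, when Pre0CU replicate C, Post770CU replicate B or Post770CU replicate C was left out. This comparison called 35.5% of all genes. The labels give polyA RNA for the vegetative Post770CU libraries and total RNA for the other vegetative libraries, though the same mRNA library kit is named for all, so collection and RNA label cannot be told apart in any comparison with Post770CU.

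In the earlier period both genes declined at each step. *DAM5* stood at 117, 109 and 98.6 CPM in the libraries of 0CU, 57.9, 62.1 and 64.3 CPM at 475CU, and 15.8, 20.5 and 20.4 CPM at 770CU. *DAM6* stood at 703, 672 and 645 CPM at 0CU, 310, 321 and 302 CPM at 475CU, and 89.7, 98.6 and 74.4 CPM at 770CU. No 2 of these collections overlapped for either gene. The 3 shoot meristem markers summed to 262 to 285 CPM at 0CU, 323 to 386 CPM at 475CU and 334 to 409 CPM at 770CU, and the flower bud markers to 14.9 to 26.9, 20.3 to 37.6 and 10 to 11 CPM in the same order. The meristem sums hide *PRS*, which fell by 1.05 ± 0.12 at 475CU against 0CU (edgeR adjusted p = 1.17e-06), whereas *STM* rose by 0.54 ± 0.11 (edgeR adjusted p = 7.31e-04). Relative spread was largest at 770CU, where the SD was 14.4% of the mean for *DAM5* and 14% for *DAM6*.

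At 475CU of the earlier period *DAM5* fell by 0.82 ± 0.08 on the log2 scale against 0CU (edgeR adjusted p = 1.23e-07). *DAM6* fell by 1.11 ± 0.09 (edgeR adjusted p = 6.44e-09), and 23.5% of genes were called. The step to 770CU was larger for both genes. The log2 fold change of 770CU over 475CU was -1.70 ± 0.08 for *DAM5* and -1.83 ± 0.09 for *DAM6*, both with an edgeR adjusted p of 8.41e-11, in a comparison that called 13.2% of genes. Over the whole interval *DAM5* at 770CU was 5.72-fold lower than at 0CU (log2 fold change -2.51 ± 0.08 SE, edgeR adjusted p = 1.67e-14). *DAM6* was 7.68-fold lower (log2 fold change -2.94 ± 0.09 SE, edgeR adjusted p = 7.67e-15). Among all genes, 32.7% were called over that interval.

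The 475CU collection was sampled in both periods. *DAM5* averaged 61.4 ± 3.25 CPM at 475CU of the earlier period and 529 ± 11.7 CPM at 475CU of the later period (SD, n = 3 each), a log2 difference of -3.11 ± 0.08. *DAM6* averaged 311 ± 9.92 CPM in the earlier period and 1076 ± 99.1 CPM in the later period, a log2 difference of -1.79 ± 0.09. The edgeR adjusted p were 2.50e-16 and 5.82e-13. As 69.2% of all genes were called between these collections and the median log2 difference of all genes was -0.35, sampling period and the making of the tables cannot be told apart here.

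To set collections of different periods side by side, the 475CU difference between periods was subtracted, which assumes that it holds at the other collections. Bridged in this way, 0CU was above Pre0CU by 2.60 ± 0.11 for *DAM5* and 2.12 ± 0.12 for *DAM6* on the log2 scale (edgeR adjusted p = 7.32e-12 and 3.90e-10), and 20.2% of genes were called. Without the bridge the value for *DAM5* changed sign to -0.50 and that for *DAM6* was 0.33, under the fold threshold. The bridged log2 difference of Post770CU over 770CU was -0.07 ± 0.11 for *DAM5* and 0.33 ± 0.12 for *DAM6*. Neither passed the test (edgeR adjusted p = 0.834 and 0.0996), while 6.43% of genes were called, and without the bridge the values were 3.04 and 2.11.

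Flower buds and vegetative buds were compared at Pre0CU and Post770CU of the later period, in a fit of the 10 libraries of these collections, whose CPM differ from those above because they were scaled separately. In flower buds *DAM5* stood at 70.4 and 69.8 CPM at Post770CU, against 159 and 148 CPM at Pre0CU. In vegetative buds of the same fit it stood at 182, 183 and 178 CPM at Post770CU, against 180, 175 and 190 CPM at Pre0CU. The flower bud libraries separated by collection and the vegetative ones overlapped. *DAM6* stood at 131 and 130 CPM in flower buds at Post770CU, against 598 and 551 CPM at Pre0CU. In vegetative buds it stood at 472, 431 and 420 CPM at Post770CU, against 619, 622 and 663 CPM at Pre0CU. For *DAM6* the collections did not overlap in either bud type, and the drop was deeper in flower buds.

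**Figure D2:**
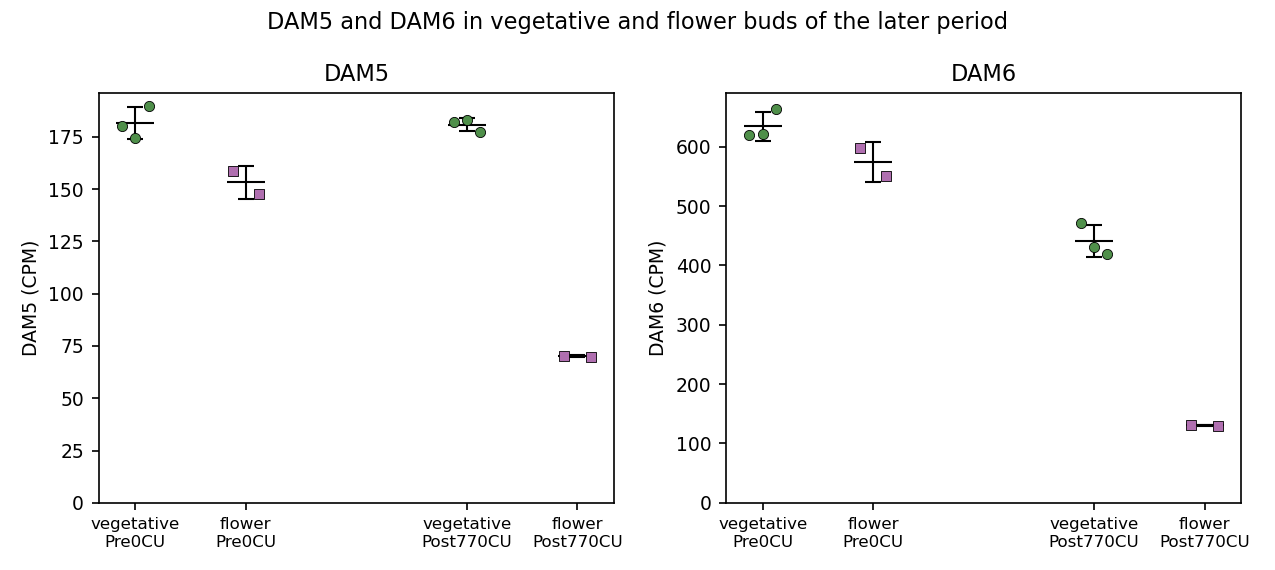
Levels of *DAM5* (left) and *DAM6* (right) in CPM on the vertical axis, for vegetative (circles, n = 3) and flower buds (squares, n = 2) at Pre0CU and Post770CU of the later period, with the mean and SD as bars. At Post770CU the flower bud libraries lie far below the vegetative ones, with *DAM6* at 130 to 131 CPM in flower buds.

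*DAM5* fell 2.19-fold in flower buds (log2 fold change -1.13 ± 0.05 SE, edgeR adjusted p = 5.30e-10). *DAM6* fell 4.41-fold (log2 fold change -2.14 ± 0.06 SE, edgeR adjusted p = 7.94e-12), and 44.5% of genes were called in flower buds. In vegetative buds of that fit the log2 fold change was -0.0048 ± 0.04 for *DAM5* (edgeR adjusted p = 0.933) and -0.53 ± 0.05 for *DAM6* (edgeR adjusted p = 4.79e-07), with 38% of genes called. The interaction of bud type and collection (the change in vegetative minus that in flower buds) was 1.12 ± 0.07 for *DAM5* (edgeR adjusted p = 5.28e-08) and 1.61 ± 0.08 for *DAM6* (edgeR adjusted p = 1.01e-08). Both interactions were called, as were 24.6% of all genes. The flower bud libraries are labelled polyA RNA at both collections, the vegetative ones total RNA at Pre0CU and polyA RNA at Post770CU, so bud type and RNA label cannot be told apart at Pre0CU, nor can the interaction be told apart from the change of label in vegetative buds.

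Within Pre0CU the bud types were close. Vegetative over flower buds gave a log2 difference of 0.24 ± 0.05 for *DAM5* (edgeR adjusted p = 0.00244) and 0.14 ± 0.05 for *DAM6* (edgeR adjusted p = 0.0879). Both were under the fold threshold, in a comparison that called 7.88% of genes. At Post770CU, where both bud types carry the polyA label, *DAM5* was 2.58-fold higher in vegetative buds (log2 difference 1.37 ± 0.05, edgeR adjusted p = 1.23e-10). *DAM6* was 3.38-fold higher (1.76 ± 0.06, edgeR adjusted p = 5.94e-11), and 28.3% of genes were called. The 4 flower bud markers summed to 12.6 to 15 CPM in vegetative buds and 143 to 150 CPM in flower buds at Post770CU. Their sums at Pre0CU were 18.8 to 21 CPM in vegetative buds and 110 to 117 CPM in flower buds. No marker of the list was at 0 in these libraries, and *LFY* stood at 80 to 84 CPM in flower buds of Post770CU. At Post770CU against Pre0CU in flower buds, 1 of the 4 was called higher, 1 lower and 2 were not called. All genes were called at a share of 44.5% there. The lower one was *AGL20B*, at 1.38 and 1.42 CPM against 4.78 and 5.29 CPM. All 4 markers were lower in vegetative than in flower buds at Pre0CU, and 3 of 4 at Post770CU, where *AGL20B* had a log2 difference of 0.18 and was not called. The shoot meristem markers summed to 101 to 109 CPM in vegetative buds and 84.8 to 92 CPM in flower buds at Post770CU, and to 189 to 204 CPM in vegetative buds and 143 to 170 CPM in flower buds at Pre0CU. None of the 3 differed between bud types at Pre0CU by the call rule. At Post770CU *KNAT1* was higher in vegetative buds, at 75.9 ± 5.35 CPM against 33.1 ± 1.57 CPM in flower buds, and *STM* was lower, at 16.4 ± 0.88 CPM against 45.7 ± 4.40 CPM (SD, n = 3 and 2), with a log2 difference of -1.48 ± 0.10 (edgeR adjusted p = 4.21e-08). Of the 3 shoot meristem markers 1 had a positive called interaction, 1 a negative one and 1 was not called, where 24.6% of all genes were called. The interaction of *STM* was -1.58 ± 0.14 (edgeR adjusted p = 1.95e-06), opposite in sign to those of *DAM5* and *DAM6*. That of *KNAT1* had the same sign as theirs. From Pre0CU to Post770CU *KNAT1* went from 147 to 75.9 CPM in vegetative buds and from 110 to 33.1 CPM in flower buds. Most of these markers were named by the study from these samples, and their part in the result was not tested.

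The ratio of *DAM6* to *DAM5* counts within a library depends on neither library size nor scaling. At Pre0CU of the later period the vegetative libraries had 3.44, 3.56 and 3.49 *DAM6* counts per *DAM5* count. The ratio was 2.17, 2.11 and 1.89 at 200CU, 1.97, 1.92 and 2.21 at 475CU, and 2.59, 2.36 and 2.36 at Post770CU. Pre0CU was the highest, 200CU and 475CU overlapped, and Post770CU lay between them and Pre0CU. The ratio differed between the 4 collections (exact permutation test of the F statistic over the 369600 arrangements of 12 libraries, p = 0.0011). Leaving out any 1 library did not change this call.

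In the earlier period the ratio was 6.02, 6.17 and 6.54 at 0CU, 5.36, 5.18 and 4.70 at 475CU, and 5.70, 4.81 and 3.65 at 770CU. The 0CU libraries were above all 475CU libraries and above all 770CU libraries, and the last pair of collections overlapped. A difference between the 3 collections did not pass the test (exact permutation test over 1680 arrangements, p = 0.075), and without 770CU replicate A the exact permutation p was 0.0107. Every library of the earlier period had a higher ratio than every vegetative library of the later period. As the tables of the periods differ, sampling period and the making of the tables cannot be told apart in that difference. In flower buds the ratio was 1.86 in both libraries of Post770CU, against 3.77 and 3.73 at Pre0CU. The log2 ratio of vegetative minus that of flower buds was -0.10 at Pre0CU and 0.39 at Post770CU, and the libraries of the bud types did not overlap at either collection. With 3 against 2 libraries the exact two-sided permutation p was 0.1 in each, the smallest that this design allows.

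**Figure D3:**
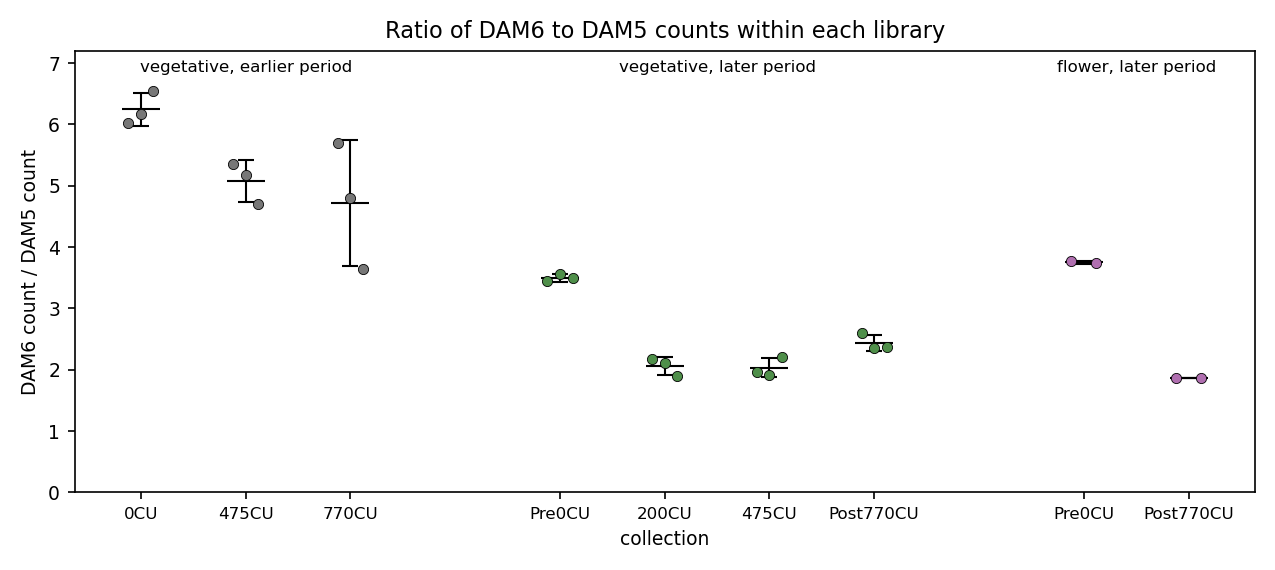
*DAM6* counts divided by *DAM5* counts within each library (vertical axis, no unit), by collection, for vegetative buds of the earlier period (grey), of the later period (green) and flower buds (purple). Points are libraries and bars the mean and SD; vegetative buds of the later period averaged 3.50 at Pre0CU and 2.06 at 200CU.

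The other 5 identifiers numbered just before *DAM5* (PRUPE_1G531100 to PRUPE_1G531500), together with *SVP1* (PRUPE_6G199000) and *SVP2* (PRUPE_8G069300), made a list of 7 related MADS-box genes. *SVP* is a repressor of flowering in *Arabidopsis*. The authors mapped with STAR at its default settings and name no filter on reads that map to more than 1 place. Counts of near-identical *DAM* copies could therefore be shared among them. At 200CU against Pre0CU, 2 of the 7 rose, 1 fell and 4 were not called, where 20.4% of all genes were called, and their median log2 fold change was 0.23, against 0.03 over all genes tested. PRUPE_1G531500, the identifier next to *DAM5*, rose by 1.87 ± 0.13 (edgeR adjusted p = 1.36e-09), with 152, 152 and 156 CPM at 200CU against 42.9, 39.6 and 43.6 CPM at Pre0CU. Its course then parted from that of the members, as it stood at 215, 227 and 240 CPM at 475CU and at 165, 158 and 156 CPM at Post770CU, all above Pre0CU. PRUPE_1G531100 went the other way at 200CU and fell by 1.53 ± 0.10 (edgeR adjusted p = 3.72e-10), with 59.1, 57.1 and 58.3 CPM at 200CU against 169, 165 and 171 CPM at Pre0CU.

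At Post770CU against 475CU, 5 of the 7 fell and 2 were not called, where 13.6% of all genes were called, with a median log2 fold change of -0.75 against 0.0044 over all genes. The 5 that fell were the array identifiers, by -0.51 to -0.86 on the log2 scale, which is less than the values of *DAM5* and *DAM6*. In the earlier period, 770CU against 0CU, 4 of the 7 fell and 3 were not called, where 32.7% of all genes were called. Their median was -0.85, against 0 over all genes. Some listed genes were near the floor there. PRUPE_1G531200 averaged 1.70 CPM at 0CU and 0.024 CPM at 770CU, and PRUPE_1G531300 averaged 0.061 and 0.017 CPM. *SVP1* fell by 0.85 ± 0.10 (edgeR adjusted p = 9.38e-07), with 31.3, 28.6 and 23.8 CPM at 770CU against 50.1, 48.8 and 51.9 CPM at 0CU. *SVP2* had a log2 fold change of 0.31 ± 0.10 and was not called.

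Between bud types all 7 listed genes were higher in vegetative than in flower buds at Post770CU, a direction in which 13% of all genes were called, and all 7 had a called interaction. The median interaction was 0.88 on the log2 scale, against 0.0047 over all genes, and 11.4% of all genes were called in that direction. Nearest to the value of *DAM6* were those of *SVP1* at 1.69 ± 0.07 and *SVP2* at 1.51 ± 0.07, with edgeR adjusted p of 4.52e-09 and 1.22e-08. In flower buds, where 44.5% of all genes were called, 6 of the 7 fell and PRUPE_1G531500 rose, by 1.09 ± 0.06 (edgeR adjusted p = 2.66e-09). In vegetative buds of the same fit, where 38% of all genes were called, 2 fell, 1 rose and 4 were not called.

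**Figure D4:**
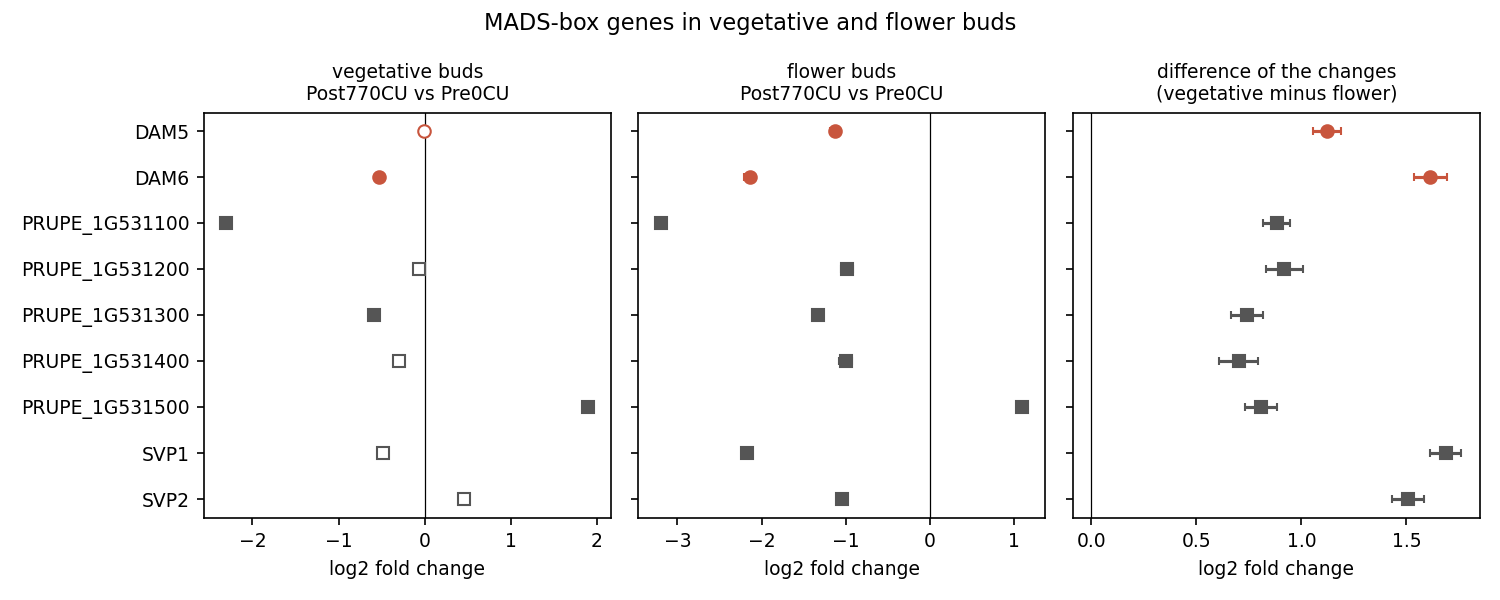
Log2 fold changes with SE bars (horizontal axes, scaled separately) of *DAM5* and *DAM6* (circles) and 7 related MADS-box genes (squares). The left and middle panels give Post770CU over Pre0CU in vegetative and flower buds, the right panel the difference of these changes, and open symbols were not called. In the right panel every gene lies above 0, with *DAM6* at 1.61 and *DAM5* at 1.12.

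The members' share of the counts on the 7 array identifiers, that is their own and the 5 before them, also moved through the season. In vegetative buds of the later period *DAM5* and *DAM6* together held 67% ± 0.62 of these counts at Pre0CU (SD, n = 3), 84.3% ± 0.54 at 200CU, 77.4% ± 0.76 at 475CU and 64.2% ± 0.71 at Post770CU. In flower buds the share was 52.8% ± 0.64 at Post770CU and 65.8% ± 0.55 at Pre0CU (SD, n = 2 each). In the earlier period it was 93.9% ± 0.31 at 0CU, 89.4% ± 1.26 at 475CU and 77.7% ± 2.61 at 770CU. PRUPE_1G531300 was near 0 in that period, at 0 to 0.23 CPM in its 9 libraries, and at 28.6 to 56.3 CPM in the 12 vegetative libraries of the later period.

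A list of 6 genes (*NCED3*, *PYL4*, *GASA1*, *GASA6*, *CLF* and *KANADI1*) was taken from those that the study names as predicted targets of *DAM* or *SVP* factors. It does not hold all of them, and the study chose them on these samples, so their values are not independent evidence of a relation. At 200CU against Pre0CU 1 of the 6 fell and 5 were not called, where 20.4% of all genes were called, and the median was -0.05 against 0.03 over all genes. *NCED3*, which encodes a rate-limiting enzyme of abscisic acid synthesis, fell by 4.22 ± 0.35 on the log2 scale (edgeR adjusted p = 1.06e-08). It stood at 4.67, 5.09 and 7.02 CPM at 200CU against 107, 103 and 104 CPM at Pre0CU, and these libraries did not overlap. In the earlier period *NCED3* had 54.3, 132 and 95.3 CPM at 475CU against 85, 44.2 and 29.2 CPM at 0CU, a called rise of 0.82 ± 0.30 (edgeR adjusted p = 0.0346) whose libraries overlapped. Of the 6, 2 rose and 4 were not called in that comparison, where 23.5% of all genes were called. *CLF*, a Polycomb histone methyltransferase in *Arabidopsis*, fell by 0.62 ± 0.08 at 770CU against 0CU (edgeR adjusted p = 2.24e-06), with 12.8, 12.2 and 12.1 CPM at 770CU against 19.2, 18.4 and 19.4 CPM at 0CU. Over that interval 3 of the 6 fell, 1 rose and 2 were not called, where 32.7% of all genes were called. In the interaction 2 of the 6 were called, a share near the 24.6% of all genes, both negative, namely *CLF* at -0.72 ± 0.10 and *PYL4*, an abscisic acid receptor in *Arabidopsis*, at -1.03 ± 0.28, with edgeR adjusted p of 7.41e-05 and 0.0091.

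Over the 21 vegetative libraries, with the mean of each period subtracted, *DAM5* and *DAM6* had a Pearson r of 0.957 in log2 CPM. Among the 13833 other genes that averaged 3 log2 CPM or more, *DAM6* ranked 3 in likeness to *DAM5*, and *DAM5* ranked 3 in likeness to *DAM6*. The most alike for both was PRUPE_4G194300, with r of 0.980 to *DAM5* and 0.973 to *DAM6*. Second for *DAM5* was PRUPE_7G118400 at 0.959, and the fourth for *DAM6* was PRUPE_1G084300, annotated as a receptor-like protein kinase, at 0.956. *CLF* reached 0.880 with *DAM5* and 0.881 with *DAM6*, ranks 75 and 92. Its r with *DAM6* was 0.739 in the later and 0.947 in the earlier period. *NCED3*, also a predicted target, was at -0.344 with *DAM5* and -0.175 with *DAM6*, ranks 10464 and 7748. The rest of the predicted targets were under the level cutoff and were not ranked. *SVP2* was at -0.146 with *DAM5*, but the sign differed between periods, at 0.274 in the later and -0.694 in the earlier one. These correlations describe libraries that share collections, and replicates of a collection are not independent points in time.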

How the data were processed

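Raw counts per gene were deposited by the authors for 21 vegetative and 4 flower bud libraries, without normalization. The authors trimmed reads with fastp, mapped them with STAR to the NCBIv2 peach genome and, after discarding duplicates, took counts on exons from multicov of bedtools 2.30.1. Whether counting used strand is not given in the sources used here. The later steps of the study, such as batch removal with ARSyNseq, were not repeated.

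Counts were tested with edgeR 4.0.16 in R 4.3.3 (filterByExpr with its minimum count of 10, TMM, quasi-likelihood test, Benjamini-Hochberg adjustment over all genes), in 1 fit of the 21 vegetative libraries and 1 fit of the 10 libraries of Pre0CU and Post770CU of both bud types. A call needed an adjusted p under 0.05 and a fold change over 1.4. Log2 CPM used a prior count of 2. SE were taken from the log2 fold change and the F statistic. Where nothing says that replicates of a collection share no trees, p-values measure only the spread between these libraries. Columns carry numbers where the labels carry letters: columns 1 to 3 were read as replicates A to C, the 475CU columns marked A and B as the first and second 475CU set of the labels, and the last column group of the later period as Post770CU.

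The members, the gene lists and the rule for genes most like the members (the 5 highest r each, of which those with an annotation and at most 2 without one are printed) were chosen with earlier results of these data known. The fits and permutation tests were tested on simulated data. DESeq2 1.42.0 served as an alternative. No sequence of the members was used.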

Additional observations from a re-analysis of the deposited data

Results flagged for a closer look

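The change between Pre0CU and Post770CU differed between bud types for both genes, by a test of the difference itself in the fit of 10 libraries. The interaction, vegetative minus flower, was 1.12 on the log2 scale for *DAM5* and 1.61 for *DAM6*, in a comparison that called 24.6% of all genes. All 3 vegetative libraries of Post770CU lay above both flower bud libraries of that collection for each gene. The RNA label changed between the vegetative collections only, and its part in the result cannot be told apart.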

How the results depend on the processing

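Of 538 alternative values for the 34 comparisons of *DAM5* and *DAM6*, 522 kept their call. A change of sign was counted as kept where neither value was called. That was so for *DAM5* at Post770CU against Pre0CU in vegetative buds, with -0.0050 to 0.051 in the fit of vegetative buds. Without the bridge, 0CU over Pre0CU was -0.50 for *DAM5*, with a changed sign, and 0.33 for *DAM6*, and Post770CU over 770CU was 3.04 for *DAM5*, with a changed sign, and 2.11 for *DAM6*. Leaving out 1 library gave -0.55 to -0.47 for *DAM6* at Post770CU against Pre0CU in vegetative buds. An absolute log2 fold change over 1.4 was not reached by *DAM6* at 1.28 (200CU over Pre0CU), 1.00 (475CU over Pre0CU of the later period), -0.50 and -0.53 (Post770CU over Pre0CU in vegetative buds, in the fit of vegetative buds and in that of both bud types) and -1.11 (475CU over 0CU). The same held for *DAM5* at -0.82 (475CU over 0CU), -1.13 (Post770CU over Pre0CU in flower buds), 1.37 (vegetative over flower buds at Post770CU) and 1.12 (interaction). The spread of collection means of the log2 ratio in the earlier period was 0.30 to 0.58 when 1 library was left out.

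A pairing of samples by replicate letter was not detected by the cutoff used (0 of 15 pairs of groups had every correlation over 0.1). With so few libraries this cannot show that the letters mark no shared trees. With a replicate block no call on *DAM5* or *DAM6* changed, for example 2.05 and 1.28 at 200CU over Pre0CU. Counts of called genes moved by over 1.5 times with at least 10 counts in every library for 475CU between periods (11261 against 18517), and without the bridge (18352 against 5407 and 18616 against 1719). With the 1 low-*LFY* library as 475CU, an alternative chosen after seeing the data, they were 661 against 1687, 2169 against 3625 and 672 against 1719, in comparisons with 200CU, Post770CU and bridged Post770CU over 770CU; the lone library was assumed to vary like the other groups. All 17 counts shrank with the higher fold threshold, to between 164 and 10212. Of the 5 genes most like each member, 1 was kept with the later period alone. Depth did not limit the members.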
